A study of Mus musculus with 6 samples.

Results

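Transcripts of 8 genes of the insulin-like growth factor (IGF) system were measured in cultures labelled as mouse lung microvascular endothelial cells (LMVEC). They were the ligand gene *Igf1*, the receptor gene *Igf1r* and the genes of 6 binding proteins, *Igfbp2* to *Igfbp7*. They were taken by name from a table of 21999 genes, in which all 8 were found and all 8 passed the filter on low counts that left 13609 genes. RNA was taken from 3 *Ptprz1*+/+ and 3 *Ptprz1*-/- isolations, all of SV129/B6 strain and untreated. For each, the lungs of 2 to 5 mice aged 3 to 8 weeks were pooled. Cells grew to confluence in medium with serum, an endothelial growth supplement and heparin, and were then taken with magnetic beads against CD31, the product of *Pecam1*. *Ptprz1*, deleted in the knockout mice, encodes a receptor-type protein tyrosine phosphatase that binds pleiotrophin. The comparison asked how its loss bears on gene expression in these cells.

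IGF1 is a secreted growth factor that binds a receptor tyrosine kinase, IGF1R, and through adaptor proteins activates the PI3K-AKT and MAP kinase pathways. The binding proteins hold IGFs outside the cell and, depending on the protein and on the proteases present, restrain or deliver them. In blood vessels, binding proteins are made by endothelial cells and by the fibroblasts and smooth muscle cells around them, and IGFBP7 is known as a protein of vessel walls.

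Several libraries stood apart from the others, and 4 of the 6 had little of most endothelial markers. The targeted gene was read in all 6, from 197 to 1837 times in *Ptprz1*+/+ and from 895 to 1320 times in the libraries labelled *Ptprz1*-/-, so its counts did not separate the genotypes, and direction is given throughout by label. *Pecam1* was at 91.0 CPM (read counts normalised by the effective library size) in *Ptprz1*+/+ replicate 3 and at 32.4 CPM in replicate 3 labelled *Ptprz1*-/-, against 1.36 to 4.40 CPM in the other 4. The summed level of 12 endothelial markers was 94.9 to 701.7 CPM in *Ptprz1*+/+ and 86.4 to 278.8 CPM in the libraries labelled *Ptprz1*-/-. In the 4 libraries low in *Pecam1*, *Eng* alone made up most of this sum, at 59.4 to 115.1 CPM. The summed level of 10 fibroblast markers was 17956 to 25941 CPM in *Ptprz1*+/+ and 10981 to 27429 CPM in the libraries labelled *Ptprz1*-/-. *Ptprz1*+/+ replicate 2 had the highest sum of 6 proliferation markers, 703.6 CPM against 87.2 to 177.0 CPM elsewhere. Replicate 1 labelled *Ptprz1*-/- had the highest sum of 7 mesothelial markers, 1091 CPM against 52.8 to 238.2 CPM elsewhere. Summed epithelial markers did not exceed 1.10 CPM in any library. In such bulk RNA, fewer cells of a type and less RNA per cell cannot be told apart.

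The binding-protein genes *Igfbp7*, *Igfbp4* and *Igfbp6* were the 3 most read members per length. The 250 bases before a RefSeq transcript start of each are shown on GRCm38.p6, on the strand of the gene, because these genes carried most of the binding-protein reads per length and their start regions differ in base composition. They lie at chr11:99040994-99041243 on the plus strand for *Igfbp4*, at chr15:102143936-102144185 on the plus strand for *Igfbp6* and at chr5:77408046-77408295 on the minus strand for *Igfbp7*. The *Igfbp6* window ends before the gene start given in the table, 102144362. The first bases after the window matched a GENCODE M21 transcript for *Igfbp4* but not for *Igfbp6* or *Igfbp7*. Capitals mark TATAAA or GGGCGG on either strand, which did not overlap each other.
Igfbp4: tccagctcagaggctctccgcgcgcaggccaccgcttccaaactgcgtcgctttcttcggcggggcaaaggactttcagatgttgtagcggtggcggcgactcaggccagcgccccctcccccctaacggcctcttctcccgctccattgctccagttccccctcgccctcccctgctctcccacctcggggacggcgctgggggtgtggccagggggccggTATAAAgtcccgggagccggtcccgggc
Igfbp6: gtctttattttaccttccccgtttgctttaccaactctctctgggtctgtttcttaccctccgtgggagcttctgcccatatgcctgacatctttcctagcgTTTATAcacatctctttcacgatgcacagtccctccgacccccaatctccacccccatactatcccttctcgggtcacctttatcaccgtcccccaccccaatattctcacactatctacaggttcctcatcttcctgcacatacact
Igfbp7: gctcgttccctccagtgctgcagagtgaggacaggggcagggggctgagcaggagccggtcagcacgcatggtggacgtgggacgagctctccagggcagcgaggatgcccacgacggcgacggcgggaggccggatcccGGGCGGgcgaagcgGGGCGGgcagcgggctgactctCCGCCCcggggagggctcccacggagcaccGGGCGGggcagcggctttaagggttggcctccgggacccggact
The *Igfbp7* window was 74.0% G and C with 26 CpG and 4 matches to GGGCGG, a GC content at percentile 95.4 of 32851 windows of the same length. The *Igfbp6* window was 49.6% G and C with 7 CpG and 1 match to TATAAA, on the opposite strand, and the *Igfbp4* window was 69.2% G and C with 22 CpG and 1 match to TATAAA. Of all windows, 32.7% held GGGCGG and 12.4% held TATAAA. Neither GTAAACA, the core recognised by FoxO factors (in 3.17% of windows), nor CACGTG (6.02%) was in these 3 windows. A match describes the letters and is not a measured binding site.

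Across the 8 genes no difference between genotypes passed the adjusted threshold of 0.05, and 4 of them varied between isolations more than at least 95.5% of genes. With Benjamini-Hochberg adjustment, the quasi-likelihood test of edgeR called 0 of 8 members and 0 of 13609 genes (percent called 0), with 366 genes (2.69%) at an unadjusted p under 0.05, none of them a member. DESeq2 called 30 genes and edgeR's likelihood ratio test 17, of which 0 were members. Relative to *Ptprz1*+/+, 5 members were estimated higher and 3 lower, with a median log2 fold change of 0.25 against 0.00 for all genes tested. The plot of CPM by library shows how far the isolations of one genotype lay from each other.

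**Figure D1:**
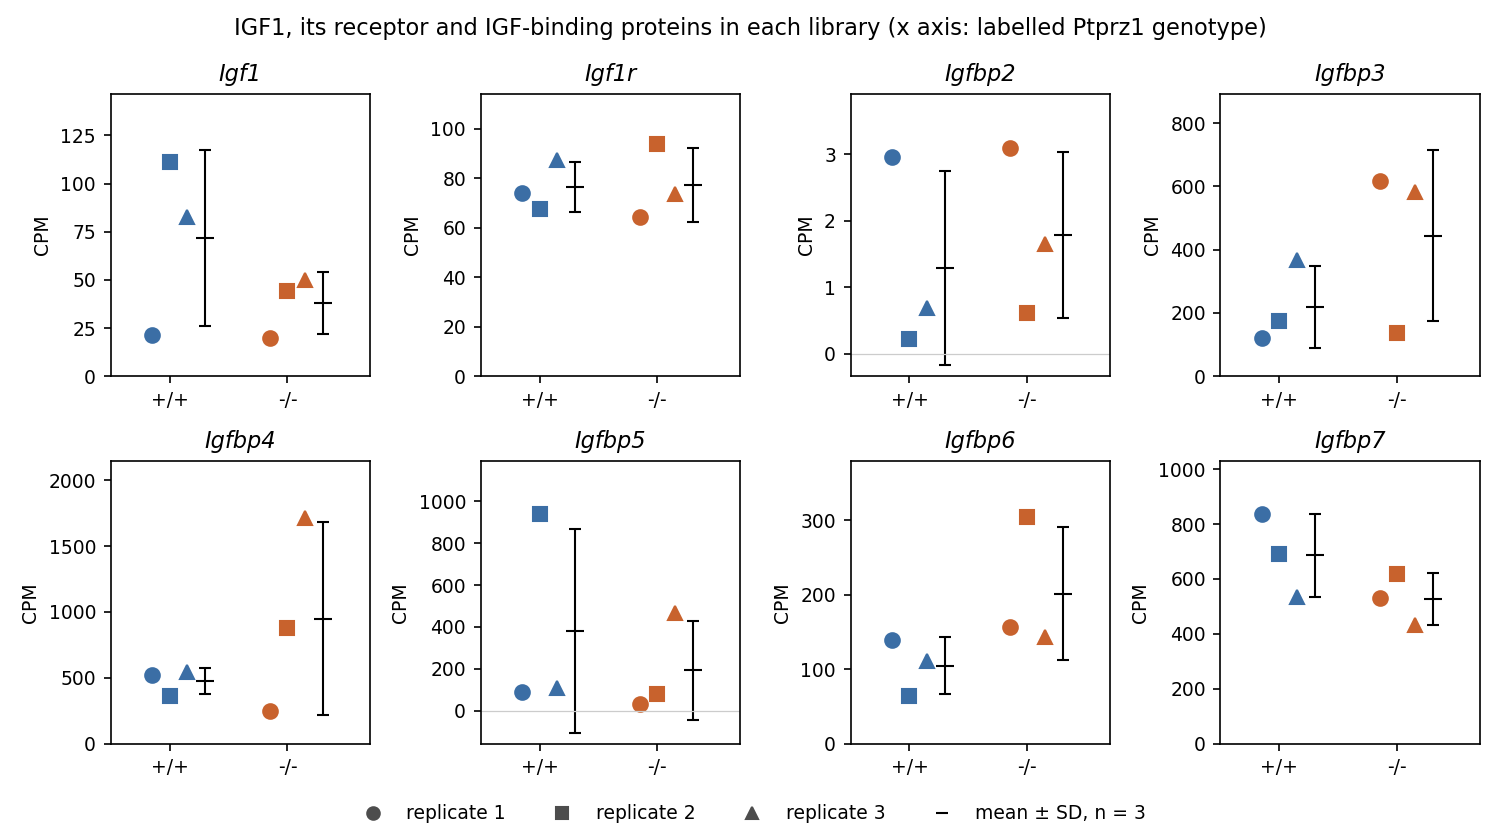
CPM of each of the 8 genes (y axis) in the 3 *Ptprz1*+/+ libraries (blue) and the 3 labelled *Ptprz1*-/- (orange), with the marker shape giving the replicate number and the bar the mean and SD (n = 3). Only for *Igfbp6* do all 3 orange points lie above all 3 blue ones.

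*Igf1* (ENSMUSG00000020053, chr10:87858265-87937042, plus strand), the ligand, was read 356, 2018 and 1310 times in *Ptprz1*+/+ replicates 1, 2 and 3 and 317, 645 and 757 times in the libraries labelled *Ptprz1*-/-. On the CPM scale this was 21.5, 110.9 and 82.7 against 19.7, 44.3 and 50.0. Both replicates numbered 1 were low, and *Ptprz1*+/+ replicates 2 and 3 were above every library of the other genotype, so that the groups overlapped only through *Ptprz1*+/+ replicate 1. Means were 71.7 ± 45.7 CPM (SD, n = 3) and 38.0 ± 16.1 CPM (SD, n = 3). The log2 fold change was -0.92 (standard error 0.62, 95% interval -2.41 to 0.57, adjusted p = 1.00 by edgeR's quasi-likelihood test), which was within the spread between isolations. Without *Ptprz1*+/+ replicate 2 it was -0.46 and without *Ptprz1*+/+ replicate 1 it was -1.35. The unadjusted p of the latter was 0.0183 and its adjusted p 0.803 by edgeR's quasi-likelihood test. *Dcn*, which encodes the matrix proteoglycan decorin and is a fibroblast marker, was named after its values were seen and lay at 488.8, 1659 and 1290 CPM in *Ptprz1*+/+ and at 289.7, 597.6 and 1091 CPM in the libraries labelled *Ptprz1*-/-. All 10 fibroblast markers had a negative estimated fold change (median log2 -0.54), 1 of them (*Thy1*) at an unadjusted p under 0.05, and none was at 0. Their sum, most of it from the collagen genes *Col1a1*, *Col1a2* and *Col3a1* in every library, did not follow *Igf1* by library. It was 18285, 17956 and 25941 CPM in *Ptprz1*+/+ and 12904, 10981 and 27429 CPM in the libraries labelled *Ptprz1*-/-. All 12 endothelial markers (median log2 -1.29) and all 6 proliferation markers (median -1.62) were estimated lower as well, none of them at an unadjusted p under 0.05, and the part of any of these lists in the *Igf1* values was not tested.

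*Igf1r* (ENSMUSG00000005533, chr7:67952859-68226780, plus strand), which encodes the signalling receptor, was the steadiest member. Its CPM was 73.9, 67.7 and 87.4 in *Ptprz1*+/+ and 64.2, 93.5 and 73.7 in the libraries labelled *Ptprz1*-/-, from 1035 to 1386 reads in each library. The highest library was 1.46 times the lowest, and the groups overlapped fully. Its log2 fold change was 0.02 (standard error 0.18, 95% interval -0.42 to 0.45, adjusted p = 1.00 by edgeR's quasi-likelihood test). Leaving out single libraries gave estimates of either sign, from -0.15 to 0.13.

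*Igfbp6* (ENSMUSG00000023046, chr15:102144362-102149511, plus strand) encodes a binding protein that prefers IGF2 over IGF1. It was read 2310, 1160 and 1765 times in *Ptprz1*+/+ and 2532, 4432 and 2169 times in the libraries labelled *Ptprz1*-/-. As CPM this was 139.5, 63.8 and 111.4 against 157.1, 304.2 and 143.3. All 3 libraries labelled *Ptprz1*-/- were above all 3 *Ptprz1*+/+ ones, though the lowest of the former exceeded the highest of the latter only slightly, and replicates numbered 2 gave both extremes. It was the only one of the 8 members whose groups did not overlap, beside 7.28% of all genes tested (3.55% with the libraries labelled *Ptprz1*-/- higher), so 1 of 8 members is near the background. Its estimated log2 fold change was 0.94 (standard error 0.40, 95% interval -0.01 to 1.89), with an unadjusted p of 0.0517 and an adjusted p of 1.00 by edgeR's quasi-likelihood test and a two-sided exact permutation p of 0.10, the smallest that 3 libraries against 3 allow. Unadjusted, the p was 0.0252 by DESeq2 and 0.0262 by the likelihood ratio test. It stayed positive with every library left out, between 0.52, without replicate 2 labelled *Ptprz1*-/-, and 1.21, without *Ptprz1*+/+ replicate 1.

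*Igfbp4* (ENSMUSG00000017493, chr11:99041244-99054392, plus strand) encodes a binding protein that restrains IGF action until it is cut by the protease PAPP-A. The 3 *Ptprz1*+/+ libraries lay close together at 519.2, 361.2 and 544.9 CPM. In the libraries labelled *Ptprz1*-/- the values were 250.8, 879.9 and 1713 CPM, so these were the lowest and the 2 highest of the 6, a 6.83-fold range within one genotype. On the log2 scale the fold change was 1.00 (standard error 0.63, 95% interval -0.53 to 2.52, adjusted p = 1.00 by edgeR's quasi-likelihood test). It was 0.25 without replicate 3 labelled *Ptprz1*-/-, 0.36 without both libraries numbered 3, those with the most *Pecam1*, and 1.45 without replicate 1 labelled *Ptprz1*-/-. The unadjusted p of the last was 0.00852 and its adjusted p 0.999 by edgeR's quasi-likelihood test.

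*Igfbp3* (ENSMUSG00000020427, chr11:7206086-7213923, minus strand) encodes the main carrier of IGFs in serum. It was at 119.1, 174.2 and 366.1 CPM in *Ptprz1*+/+ and at 617.3, 134.9 and 581.5 CPM in the libraries labelled *Ptprz1*-/-. The 2 highest libraries were labelled *Ptprz1*-/- and the other one of that label lay among the lowest, so the groups overlapped. The log2 fold change was 1.02 (standard error 0.65, 95% interval -0.55 to 2.58, adjusted p = 1.00 by edgeR's quasi-likelihood test), and it lay between 0.71 and 1.60 when single libraries were left out. Replicates 1 and 3 labelled *Ptprz1*-/- also had the 2 highest sums of the 7 mesothelial markers, 1091 and 238.2 CPM, against 52.8 to 163.3 CPM in *Ptprz1*+/+ and 90.3 CPM in the remaining library. All 6 tested mesothelial markers had a positive estimated fold change, 1 of them (*Lrrn4*) at an unadjusted p under 0.05, none of the 7 was at 0 in any library, and their part in the *Igfbp3* values was not tested. In replicate 3 labelled *Ptprz1*-/- the sum was mostly *Lrrn4* (140.2 CPM), while *Msln*, at 6.01 CPM, and 4 other markers of the list were below their level in *Ptprz1*+/+ replicate 1, the library with the least *Igfbp3*.

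*Igfbp5* (ENSMUSG00000026185, chr1:72857932-72874884, minus strand), whose product also binds extracellular matrix, varied the most. It was read 1495, 17134 and 1741 times in *Ptprz1*+/+ and 515, 1153 and 7054 times in the libraries labelled *Ptprz1*-/-, or 90.3, 941.9 and 109.8 CPM against 32.0, 79.1 and 465.9 CPM. One library of each genotype was far above the rest, and the highest of the 6 was 29.5 times the lowest. The log2 fold change of -0.99 (standard error 1.26, 95% interval -4.01 to 2.04, adjusted p = 1.00 by edgeR's quasi-likelihood test) turned to 0.94 without *Ptprz1*+/+ replicate 2 and was -3.22 without both libraries numbered 3. *Ptprz1*+/+ replicate 2 and replicate 3 labelled *Ptprz1*-/-, the highest for *Igfbp5*, also had the most *Pdgfra*, a growth factor receptor gene of fibroblasts. It was at 953.3 and 501.6 CPM there, against 323.9 to 352.0 CPM in the other 4. *Lum* was highest in them too, at 129.8 and 129.1 CPM, but at 122.3 CPM in *Ptprz1*+/+ replicate 3. *Col1a1*, *Col1a2*, *Col3a1*, *Dcn*, *Fbln1*, *Thy1*, *Dpt* and *Fap* did not have these as their 2 highest libraries. The summed fibroblast list, mostly collagen genes, was not highest in *Ptprz1*+/+ replicate 2 (17956 CPM). The part of the list in the *Igfbp5* values was not tested.

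*Igfbp7* (ENSMUSG00000036256, chr5:77349240-77408045, minus strand) encodes a binding protein with low affinity for IGFs. It was at 836.0, 689.4 and 533.6 CPM in *Ptprz1*+/+ and at 529.2, 619.7 and 430.7 CPM in the libraries labelled *Ptprz1*-/-. Its range was narrow beside those of the other binding proteins, 1.94-fold over the 6 libraries, and only replicate 2 labelled *Ptprz1*-/- lay above the lowest *Ptprz1*+/+ library. The log2 fold change was -0.38 (standard error 0.24, 95% interval -0.95 to 0.18, adjusted p = 1.00 by edgeR's quasi-likelihood test), and it stayed between -0.53 and -0.21 when single libraries were left out. In GENCODE M21 the exons of *Igfbp7* share 85 bases with those of *Polr2b* on the opposite strand, to which 6173 reads were counted over the 6 libraries, and the use of strand in counting is not given in the sources used here.

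*Igfbp2* (ENSMUSG00000039323, chr1:72824503-72852474, plus strand) was the rarest, with 49, 4 and 11 reads in *Ptprz1*+/+ and 50, 9 and 25 in the libraries labelled *Ptprz1*-/-. Both replicates numbered 1 were high, at 2.96 and 3.10 CPM, and the others lay between 0.22 and 1.65 CPM. Its log2 fold change was 0.48 (standard error 0.97, 95% interval -1.86 to 2.81, adjusted p = 1.00 by edgeR's quasi-likelihood test). The counts were low and also differed widely within a genotype, and the estimate was -0.02 when *Ptprz1*+/+ replicate 2 was left out and -0.17 when replicate 1 labelled *Ptprz1*-/- was. Both replicates numbered 1 also had the highest sums of the 9 smooth muscle and pericyte markers, 4435 and 4611 CPM against 866.4 to 1955 CPM in the other 4. *Acta2*, at 2157 and 1636 CPM, and *Tagln*, at 1349 and 1875 CPM, made up most of these sums. *Myh11*, *Cnn1* and *Des* were also highest in both replicates numbered 1, whereas *Pdgfrb*, *Cspg4*, *Rgs5* and *Notch3* were not. Of the 9 markers 6 had a positive and 3 a negative estimated fold change, none was at 0, and their part in the *Igfbp2* values was not tested.

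**Figure D2:**
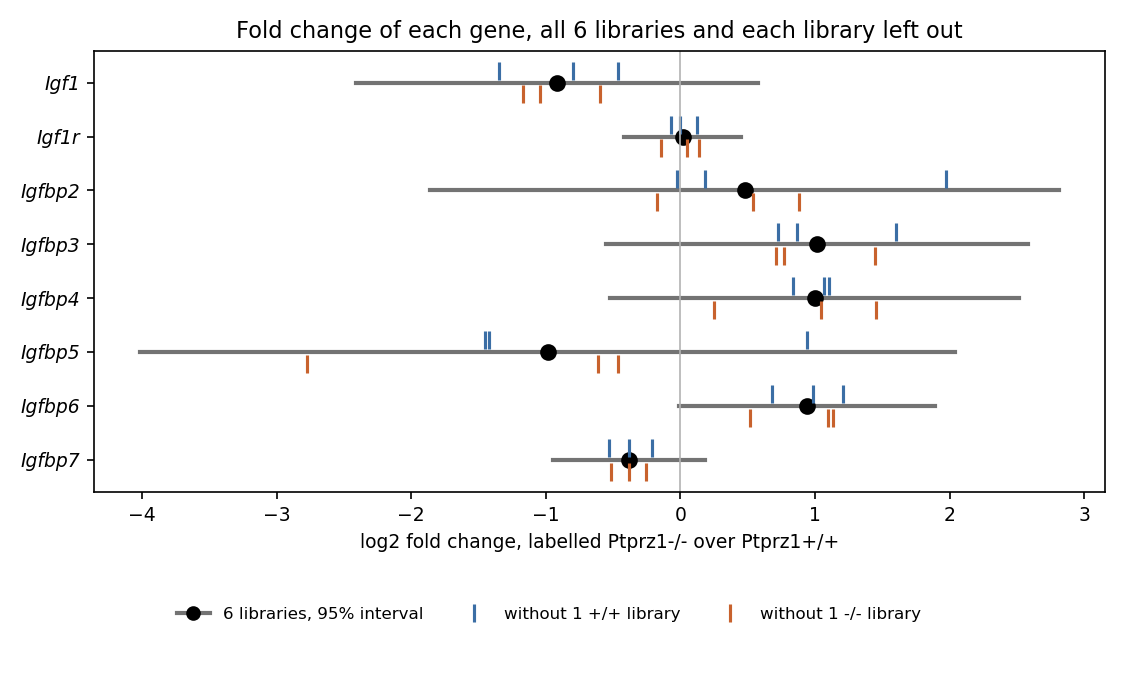
Log2 fold change (x axis) of each gene (y axis), the libraries labelled *Ptprz1*-/- over *Ptprz1*+/+, with its 95% interval (grey bar) and the estimates with 1 *Ptprz1*+/+ library (blue ticks) or 1 library labelled *Ptprz1*-/- (orange ticks) left out. All 8 intervals include 0, and the ticks of *Igf1r*, *Igfbp2* and *Igfbp5* lie on both sides of 0.

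The spread within a genotype divided the 8 genes into variable and steady ones. Measured as the SD of log2(CPM + 1) within genotypes, it was 1.91 for *Igfbp5*, above that of 99.6% of genes tested, and 1.05, 1.02 and 1.01 for *Igfbp3*, *Igfbp4* and *Igf1*, each above that of at least 95.5% of genes. *Igfbp2* and *Igfbp6* were at percentiles 91.8 and 85.4. The 1 added before the log narrows the spread of a gene as low as *Igfbp2*, whose highest library was 14.1 times its lowest by CPM. *Igfbp7* and *Igf1r* were near the middle, at percentiles 57.5 and 43.8. The ligand gene *Igf1* was highest in the same library as *Igfbp5*, *Ptprz1*+/+ replicate 2, but not in that of any other binding protein. The highest library was replicate 1 labelled *Ptprz1*-/- for *Igfbp3* and *Igfbp2* and replicate 3 of that label for *Igfbp4*. It was replicate 2 of that label for *Igfbp6* and *Igf1r*, and *Ptprz1*+/+ replicate 1 for *Igfbp7*.

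Levels of different genes were compared per length, as CPM divided by the gene length deposited with the counts. *Igfbp7* led with a mean of 499.9 CPM per kb over the 6 libraries, followed by *Igfbp4* (185.7), *Igfbp6* (137.8), *Igfbp3* (137.2), *Igfbp5* (47.7), *Igf1r* (17.1), *Igf1* (7.78) and *Igfbp2* (1.18). Neighbours in this order mostly overlapped. *Igfbp7* was above *Igfbp4* in 5 of 6 libraries, *Igfbp4* above *Igfbp6* in 4, *Igfbp6* above *Igfbp3* in 2, *Igfbp3* above *Igfbp5* in 5, *Igfbp5* above *Igf1r* in 2 and *Igf1r* above *Igf1* in 5. Only *Igf1* and *Igfbp2* had ranges that did not overlap. *Igfbp6* and *Igfbp3* changed places by the deposited FPKM. The order of *Igf1r* and *Igf1* depends on the gene model, since the table gives *Igf1r* a length of 4489 bases and GENCODE M21 an exon length of 16791 bases, and on the latter *Igf1* came first.

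**Figure D3:**
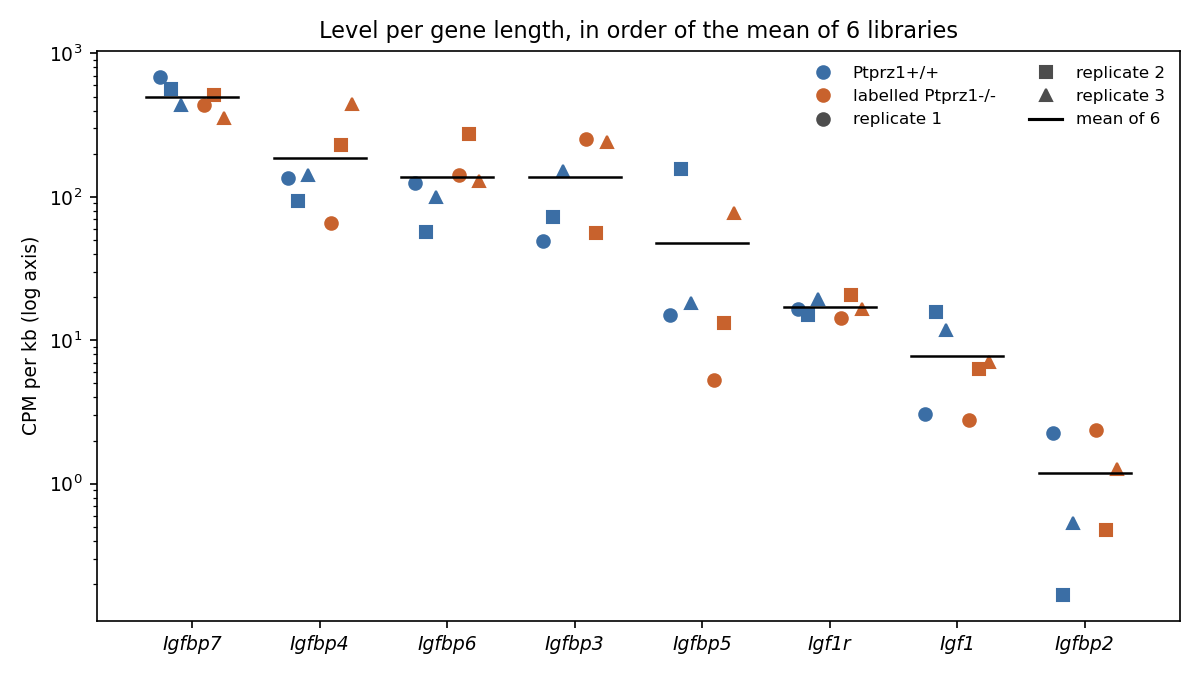
CPM per kb of gene length (y axis, log scale) of the 8 genes, ordered by the mean of 6 libraries (black line), with *Ptprz1*+/+ in blue and the libraries labelled *Ptprz1*-/- in orange. *Igfbp7* lies at the top and *Igfbp2* at the bottom, and most neighbours overlap.

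After division by gene length, *Igfbp7* contributed a smaller share of the binding-protein level in each of the libraries labelled *Ptprz1*-/- than in any *Ptprz1*+/+ library, whereas its share of the undivided CPM overlapped. The 6 binding-protein genes summed to 1017, 948.9 and 852.3 CPM per kb in *Ptprz1*+/+ and to 905.7, 1084 and 1250 CPM per kb in the libraries labelled *Ptprz1*-/-, so the groups overlapped. *Igfbp7* made up 67.8%, 59.9% and 51.6% of that sum in *Ptprz1*+/+ and 48.2%, 47.2% and 28.4% in the libraries labelled *Ptprz1*-/-, or 59.8% ± 8.1 against 41.2% ± 11.1 (SD, n = 3). These shares did not overlap, but by a small margin, and no test was made of them because the shares of one library add up to 100. Without division by length they overlapped, at 30.9% to 49.0% against 12.9% to 33.3%, and with GENCODE M21 exon lengths they did not, at 55.1% to 69.9% against 31.3% to 52.1%. *Igfbp7* was the only 1 of the 6 genes whose share did not overlap, and the shares of all others overlapped under each of these scalings. By CPM, the groups of 7.28% of all genes tested did not overlap. In each of the libraries labelled *Ptprz1*-/-, 2 of the genes *Igfbp3*, *Igfbp4* and *Igfbp6* lay above their highest *Ptprz1*+/+ share per length (17.7% for *Igfbp3*, 16.7% for *Igfbp4*, 12.3% for *Igfbp6*). In replicate 1 these were *Igfbp3* (28.2%) and *Igfbp6* (15.6%), in replicate 2 *Igfbp6* (25.2%) and *Igfbp4* (21.2%), and in replicate 3 *Igfbp4* (35.8%) and *Igfbp3* (19.2%). The share of *Igfbp2* in replicate 1 of that label, 0.26%, was also above its highest *Ptprz1*+/+ share, 0.22%. In *Ptprz1*+/+ replicate 2 *Igfbp5* made up 16.5%, against 0.59% to 6.21% in the other 5. The summed binding-protein level was 333.4, 60.3 and 72.7 times that of *Igf1* in *Ptprz1*+/+ and 324.8, 172.6 and 176.3 times in the libraries labelled *Ptprz1*-/-, with both replicates numbered 1 highest and the groups overlapping.

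**Figure D4:**
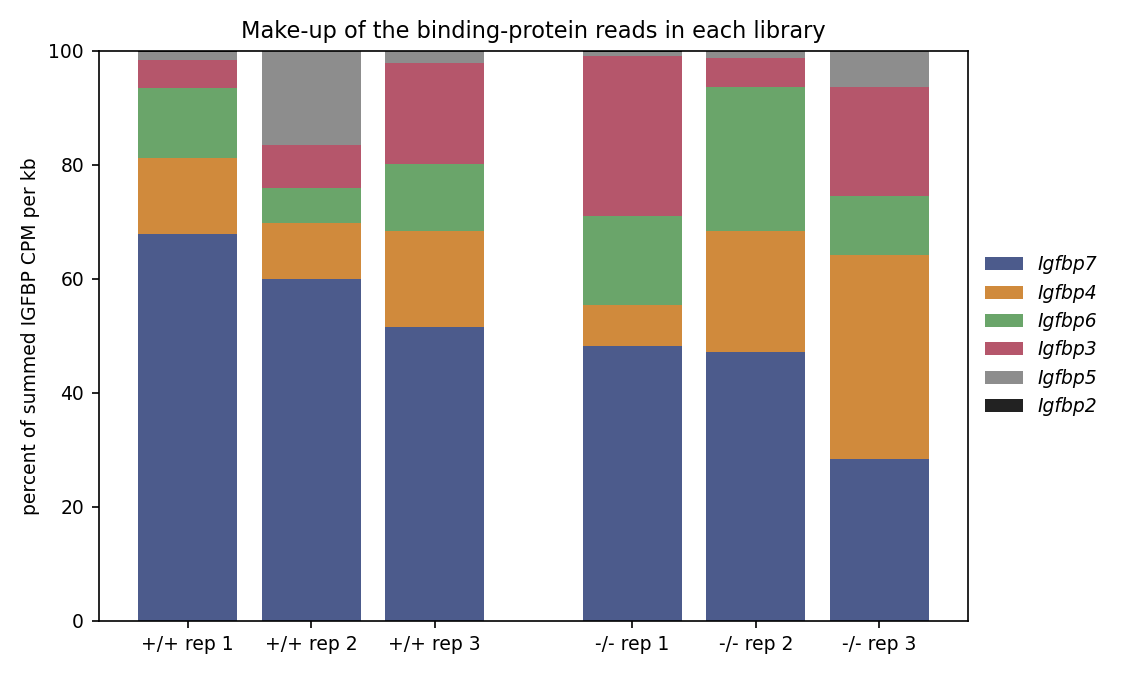
Percent of the summed binding-protein CPM per kb (y axis) that each of the 6 genes contributed in each library (x axis, rep is replicate). The *Igfbp7* share is 51.6% to 67.8% in the 3 *Ptprz1*+/+ libraries and 28.4% to 48.2% in the 3 labelled *Ptprz1*-/-, where *Igfbp3*, *Igfbp4* and *Igfbp6* each exceed their highest *Ptprz1*+/+ share in 2 libraries.

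The genes most like each member over the 6 libraries were found by Pearson's r of log2(CPM + 1) among the 9285 genes with a mean of at least 10 CPM. For *Igf1* they were *Nfkbia*, the gene of an inhibitor of NF-kappaB (0.995), *Pet100* (0.994) and *Angptl2*, the gene of a secreted angiopoietin-like protein (0.992). *Angptl2* was at 42.8, 284.7 and 159.4 CPM in *Ptprz1*+/+ and at 39.2, 83.2 and 112.5 CPM in the libraries labelled *Ptprz1*-/-, the same order of libraries as *Igf1*. *Igf1r* was most like *Phf20l1* (0.992), *Klf6* (0.984) and *Tcf20* (0.983), and *Igfbp7* most like *Rap2c* (0.991), *Slc35a1* (0.988) and *Nrd1* (0.982). *Igfbp6* was most like *Lactb2* (0.993), *Agfg1* (0.992) and *Adamtsl5* (0.992), and *Igfbp5* most like *Etv6* (0.991), *Fbxo34* (0.982) and *Zfp334* (0.977). *Igfbp3* was nearest to *Fbxw9* (0.983), *Igfbp4* to *Polr3a* (0.977) and *Igfbp2* to *Mrpl9* (0.978). Pearson's r does not measure the size of a change, and some of these genes hardly varied. *Polr3a* lay between 27.2 and 31.0 CPM, where *Igfbp4* lay between 250.8 and 1713 CPM. With 6 libraries and so many genes, values this high describe likeness only, and the points share the same libraries and depths.

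Other genes of the pathway were read from 8 lists with 75 genes, of which 72 were in the table and 67 were tested. None passed the adjusted threshold by any of the 3 tests. By the unadjusted p of edgeR's quasi-likelihood test 3 of 67 were under 0.05, beside 2.69% of all genes, and the groups of 8 of 67 did not overlap, beside 7.28%. The median log2 fold change of the 67 was 0.10, with 45 estimated higher and 22 lower, beside 6685 higher and 6924 lower of all genes tested. Genes of a pathway can vary together between isolations, and the split was not tested.

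Among other ligands and receptors, *Igf2*, the gene of the second IGF ligand, was at 6.83, 2.86 and 36.2 CPM in *Ptprz1*+/+ and at 5.64, 10.2 and 117.8 CPM in the libraries labelled *Ptprz1*-/-. It was high in the 2 libraries numbered 3, those with the most *Pecam1*, and its groups overlapped (log2 fold change 1.55, unadjusted p = 0.298 by edgeR's quasi-likelihood test). *Igf2r*, whose product takes IGF2 to lysosomes, had the highest level per length of that list and lay between 301.2 and 518.4 CPM. *Insr*, the insulin receptor gene, lay between 56.9 and 78.1 CPM.

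The proteases that cut binding proteins, and their inhibitors, were a list of 5 genes. It held 2 of the 8 pathway genes whose groups did not overlap, beside 7.28% of all genes tested. *Pappa*, the gene of the protease of IGFBP4, was at 184.2, 162.4 and 135.7 CPM in *Ptprz1*+/+ and at 219.1, 340.9 and 196.0 CPM in the libraries labelled *Ptprz1*-/-. *Stc1*, which encodes stanniocalcin-1, an inhibitor of that protease, was at 41.5, 43.9 and 88.0 CPM against 8.19, 30.4 and 40.2 CPM. For *Pappa* the log2 fold change was 0.65 (standard error 0.25, unadjusted p = 0.0369 and adjusted p = 1.00 by edgeR's quasi-likelihood test) and for *Stc1* -1.14 (standard error 0.59, unadjusted p = 0.0989). *Pappa* was higher and *Stc1* lower in each of the libraries labelled *Ptprz1*-/- than in any *Ptprz1*+/+ library, and neither passed the adjusted threshold. *Stc2*, at a mean of 18.2 CPM per kb against 11.2 for *Stc1*, had a log2 fold change of 0.03 (unadjusted p = 0.940 by edgeR's quasi-likelihood test). For *Pappa2* it was 1.32 (unadjusted p = 0.0737 by the same test). The groups of both overlapped, and cutting of IGFBP4 was not measured. *Htra1*, a secreted serine protease gene and the list's highest per length, lay between 27.5 and 133.5 CPM with overlapping groups.

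Among genes of other proteins with the N-terminal domain of the binding proteins, the highest per length was *Cyr61*, a matricellular protein gene, at 171.8 to 676.8 CPM with overlapping groups. *Ctgf*, its relative, was at 194.5, 48.5 and 154.8 CPM in *Ptprz1*+/+ and at 318.9, 412.2 and 197.8 CPM in the libraries labelled *Ptprz1*-/-, without overlap (log2 fold change 1.22, unadjusted p = 0.0567 by edgeR's quasi-likelihood test). Like *Igfbp6*, it was lowest in *Ptprz1*+/+ replicate 2 and highest in replicate 2 labelled *Ptprz1*-/-.

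Upstream and downstream of the receptor the list medians lay near 0. Growth hormone drives *Igf1* in liver, and in its list the highest level per length was that of *Socs3*, a feedback inhibitor, at 173.8 to 346.2 CPM. The median log2 fold change was 0.02 for 7 growth hormone genes and 0.07 for 10 tested adaptors, led by *Grb10* (412.7 to 631.6 CPM). It was 0.09 for 18 genes of PI3K, AKT and mTOR, led by *Eif4ebp1* (113.8 to 273.1 CPM). For the 12 genes of FoxO factors and their targets, led by the target *Gadd45a* (30.1 to 63.8 CPM), it was 0.08. In the PI3K list *Pik3r2*, the gene of a regulatory subunit (log2 fold change 0.13), was higher and *Rps6kb1*, the S6 kinase gene (-0.24), lower in the libraries labelled *Ptprz1*-/- without overlap, and neither was under an unadjusted p of 0.05. *Fbxo32*, a ubiquitin ligase gene raised by FoxO factors, was at 10.3, 9.51 and 11.5 CPM in *Ptprz1*+/+ and at 15.1, 13.7 and 14.3 CPM in the libraries labelled *Ptprz1*-/- (log2 fold change 0.46, unadjusted p = 0.0300 by edgeR's quasi-likelihood test). These values rest on 170 to 183 reads in *Ptprz1*+/+ and 199 to 244 in the libraries labelled *Ptprz1*-/-.

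All 3 genes for RNA-binding proteins named after *Igf2* mRNA were estimated lower in the libraries labelled *Ptprz1*-/-. *Igf2bp2* was at 214.0, 244.8 and 203.4 CPM in *Ptprz1*+/+ and at 164.8, 185.6 and 179.2 CPM in the libraries labelled *Ptprz1*-/-, without overlap. Its log2 fold change was -0.32 (standard error 0.13, unadjusted p = 0.0483 and adjusted p = 1.00 by edgeR's quasi-likelihood test). *Igf2bp1* and *Igf2bp3*, with log2 fold changes of -0.69 and -0.92, were at 4.09 to 18.2 CPM and their groups overlapped.

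**Figure D5:**
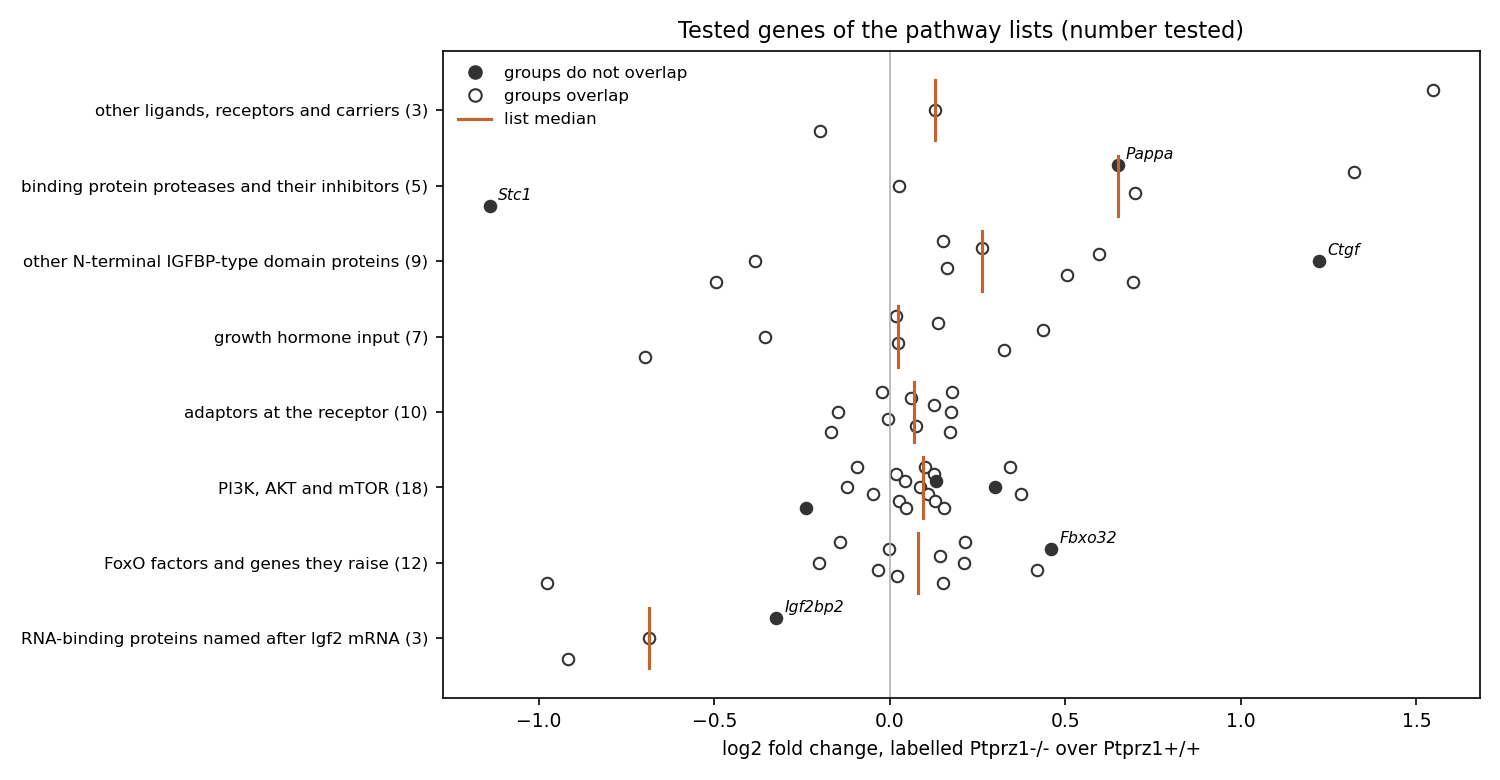
Log2 fold change (x axis), the libraries labelled *Ptprz1*-/- over *Ptprz1*+/+, of the 67 tested genes of 8 pathway lists (y axis, with the number tested), where filled points are the 8 genes whose groups did not overlap, 5 of them labelled, and orange lines the list medians. The adaptors and the PI3K, AKT and mTOR genes lie close to 0, and the proteases and their inhibitors spread from -1.14 to 1.32.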

How the data were processed

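Total RNA of 6 LMVEC isolations was sequenced. The authors deposited a table with raw read counts per gene and library, a gene length and FPKM values computed from them. The submitters' processing notes name STAR, TopHat, HTSeq, DESeq2, edgeR and GRCm38 (mm10), without roles. The table's fold changes, p-values and called lists, which hold the authors' own comparison, were not used.

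Counts were tested with edgeR 4.0.16 in R 4.3.3 (filterByExpr, TMM, glmQLFit, glmQLFTest) with genotype as the only term, Benjamini-Hochberg adjustment over 13609 genes and a threshold of 0.05. CPM were on TMM-scaled library sizes. The standard error is the absolute log2 fold change over the square root of F. The smallest exact two-sided permutation p is 0.10. Library totals of 14496881 to 17709663 reads gave each member other than *Igfbp2* at least 317 reads in every library. The script was tested on simulated counts in which every gene had the same dispersion (spread between libraries). How well changes are recovered at the spread of these libraries was not tested. Promoters came from RefSeq (GRCm38.p6), in which all 8 members were found by name, and exon lengths from GENCODE M21.

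The text names the 8 members, from each pathway list the gene with the most reads per length and those with an unadjusted p under 0.05 or non-overlapping groups, and the nearest genes by r. *Igf2*, *Insr*, *Stc2*, *Pappa2*, *Igf2bp1*, *Igf2bp3* and the single markers were named after their values were seen. A gene that the rule names is not reported here. Members and lists were chosen with earlier results of these data known. The alternatives were DESeq2 1.42.0, the likelihood ratio test, upper-quartile scaling, other count filters, a replicate block, each library left out, both libraries numbered 3 left out and other length scalings, the GENCODE one chosen after seeing the data.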

Additional observations from a re-analysis of the deposited data

How the results depend on the processing

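Calls among the 8 members and the pathway lists stayed at 0 under every alternative, while the number of genes called over the table rose from 0 to 30 by DESeq2 and to 17 by the likelihood ratio test. The replicate numbers were not taken as pairs, because the deviations of same-numbered libraries correlated at 0.46, -0.06 and 0.53, and the libraries numbered 2 did not correlate best with their own number. With the replicate block 0 genes were called and 690 were at an unadjusted p under 0.05. Of the members only *Igf1* was among them (log2 fold change -0.73, unadjusted p = 0.0399 and adjusted p = 0.959 by edgeR's quasi-likelihood test). By the same test, leaving out single libraries also brought *Igf1*, *Igfbp3*, *Igfbp4* and *Igfbp6* under an unadjusted p of 0.05. For *Igfbp3* it was 0.0281, without replicate 2 labelled *Ptprz1*-/-. When single libraries were left out, the log2 fold change ran from -0.15 to 0.13 for *Igf1r*, from -0.17 to 1.97 for *Igfbp2* and from -2.77 to 0.94 for *Igfbp5*, each with a turn of sign: for *Igf1r* to -0.0033, -0.067 and -0.15 without *Ptprz1*+/+ replicate 1, *Ptprz1*+/+ replicate 2 and replicate 2 labelled *Ptprz1*-/-, for *Igfbp2* to -0.023 and -0.17 without *Ptprz1*+/+ replicate 2 and replicate 1 labelled *Ptprz1*-/-, and for *Igfbp5* to 0.94 without *Ptprz1*+/+ replicate 2. The other 5 members kept their sign under all alternatives. *Igfbp2* was not tested where at least 10 counts were required in every library. *Igfbp2* had both few reads (4 to 50) and a wide spread between isolations, and which of them widens its interval was not tested.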

Other observations

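Of the listed pathway genes in the table, 5 had too few reads for a test. *Igfals*, which encodes the third component of the serum complex of IGF1 and IGFBP3, had at most 5 reads in a library. *Insrr*, a receptor gene related to *Igf1r*, had 3 reads in each replicate 1 and 0 in the other 4 libraries. *Irs4* had 1 read in replicates 1 and 2 labelled *Ptprz1*-/- and 0 elsewhere, *Igfbpl1* had 2 in *Ptprz1*+/+ replicate 3 and 0 elsewhere, and *Htra4* had 4 to 18.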
